A study of Mus musculus with 10 samples.

Results

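Signals of transcription factors that mark cortical layers, cortical areas and excitatory neurons were compared between visual cortex that had lost its main eye input and visual cortex that had kept it. The set consisted of the probe sets whose annotated gene was exactly 1 of 10 named genes: Cux1, Cux2, Rorb, Etv1, Tbr1, Foxp1, Lmo4, Mef2c, Emx1 and Nr2f1. On the array, 12 of 12422 probe sets met this rule, and they covered 7 of the 10 genes, out of 8251 genes with such a probe set in all. Mef2c had 4 probe sets, Cux1 and Foxp1 had 2 each, and Cux2, Tbr1, Lmo4 and Nr2f1 had 1 each. Rorb, Etv1 and Emx1 were not analysed here, Etv1 because its probe set is annotated to a second gene as well. The probe sets were taken by gene name and not by their values, but the names were chosen with earlier results of these data known.

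Neurons of the cerebral cortex are born in sequence and settle in layers, and each layer keeps a set of transcription factors that fixed the identity of its neurons during development. Factors that act in gradients across the cortical sheet, such as Nr2f1, set apart its areas. In the visual cortex these factors remain expressed after birth, when eye input refines the connections, and Mef2c in particular is known as a factor whose activity follows neuronal calcium signals.

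All samples came from wild-type C57Bl6 mice that had 1 eye removed at postnatal day 14 and were killed at postnatal day 18, after 4 days. The 5 deprived samples were taken opposite the removed eye (contralateral) and the 5 non-deprived samples on its own side (ipsilateral), with 1 array for each. Both groups thus came from operated animals, and no intact control was included. The labels describe pooled samples and 4 mice without saying how animals were divided over the 10 samples, so the p-values measure only the spread between these samples, which may be technical. Tissue was dissected from coronal slices and holds all cell types, and in such bulk RNA fewer cells of a type and less RNA per cell cannot be told apart.

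The values are signal intensities in arbitrary units on a linear scale, scaled per array by the authors, so every difference is relative to the array's average. Arrays carry no read depth, and their number limits the precision. The median signal of an array was 191 to 209, and arrays of 1 group correlated at 0.957 to 0.979 (Pearson, across 7453 probe sets, which are not independent). For beta-actin, whose 3' to 5' ratio is higher in degraded RNA, that ratio averaged 1.58 ± 0.121 on the deprived and 1.58 ± 0.181 on the non-deprived arrays (SD, n = 5 each; p = 0.96, also after adjustment over 4 quality measures, by exact two-sided permutation). Among markers of cortical excitatory neurons, Nrgn, a postsynaptic calmodulin-binding protein, averaged 5750 in deprived and 5610 in non-deprived cortex. Neurod2, a factor of cortical projection neurons, averaged 1280 and 1251. Other excitatory markers were lower in deprived cortex, with Camk2a at 499 and 617 and Cck at 6665.5 and 6866.9. Some were dim, with Pcp4 at 24.2 and 29.0. The mean was higher in deprived cortex for 10 of 19 measured markers of excitatory neurons and layers. Of 8 measured markers of neighbouring tissue, the striatal genes Drd2 and Rgs9 had 121 and 39.3 in deprived and 125 and 39.1 in non-deprived cortex, and Prox1, a factor of dentate granule cells, had 24.9 and 27.7. Others were brighter, with Penk, an opioid peptide gene of striatum, at 1204 and 1141 and Tcf7l2, a thalamic factor, at 579.8 and 530.6.

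No probe set of the 7 genes passed the test between deprived and non-deprived cortex. Of the 12 probe sets, 11 passed the filter on dim signals (mean above the 40th percentile) and were tested in limma on log2(signal + 16) together with all other probe sets. After Benjamini-Hochberg adjustment over all 7453 tested probe sets 0 of the 11 passed 0.05, against 0% of all tested probe sets, where the smallest adjusted p was 0.0503. At an unadjusted p under 0.05 there were again 0 of 11, against 4.79% of all tested. The log2 differences, deprived minus non-deprived, ran from -0.14 to 0.17 with a median of -0.02, and 3 were above and 8 below 0. Over all tested probe sets the median was 0.0066 and 48% lay below 0. Since estimates of 1 gene share their target, the 8 are not 8 separate genes. The 2 groups overlapped for each of the 12 probe sets, against 0.953% of tested probe sets whose groups did not.

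**Figure D1:**
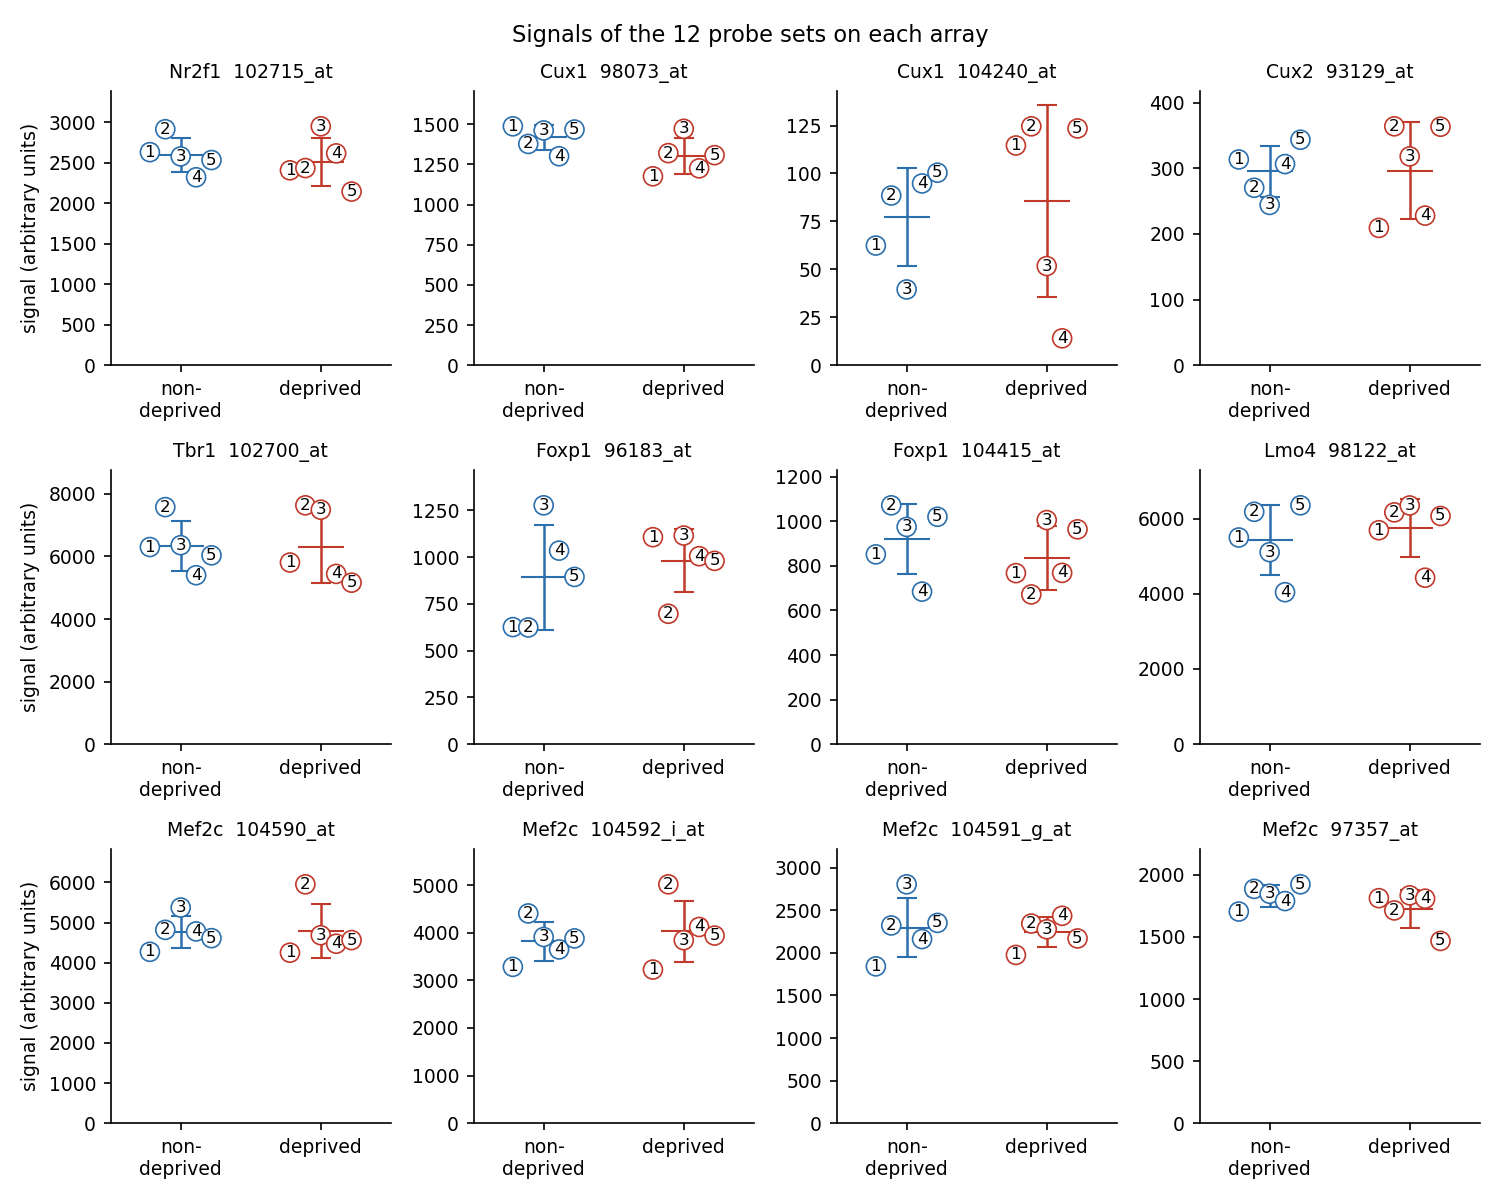
Signal of each member probe set on each of the 10 arrays, in arbitrary units on a linear axis from 0. Circles are arrays numbered by replicate within their group, and bars show the mean and SD of 5 arrays. In each panel the deprived and non-deprived arrays overlap.

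Nr2f1, also known as COUP-TFI, is a nuclear receptor that is graded across the cortex and needed for the sensory areas. Its signals were 2404, 2432, 2947, 2613 and 2142 in deprived replicates 1 to 5 and 2628, 2911, 2576, 2318 and 2531 in non-deprived replicates 1 to 5. The highest and the lowest of all 10 arrays, replicates 3 and 5, were both deprived, so the non-deprived range lay inside the deprived range. The means were 2508 ± 298 and 2593 ± 213 (SD, n = 5 each), and the log2 difference was -0.05 ± 0.09 (SE) with a 95% interval from -0.25 to 0.15 (limma adjusted p = 0.992).

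Cux1 and Cux2 encode CUT homeodomain factors of upper-layer neurons, where they act on dendrite branching and spine formation. Cux1 on probe set 98073_at had signals of 1176, 1320, 1471, 1225 and 1308 in deprived replicates 1 to 5. In non-deprived replicates 1 to 5 it had 1487, 1377, 1461, 1301 and 1467. The deprived arrays lay toward the lower end, apart from replicate 3, and the ranges overlapped between 1301 and 1471. With means of 1300 ± 113 and 1419 ± 78.1 (SD, n = 5 each), the log2 difference was -0.13 ± 0.08 (SE). Its 95% interval reached from 19.0% lower to 3.49% higher in deprived cortex (limma unadjusted p = 0.145, adjusted p = 0.992). This was the smallest unadjusted p among the 11 tested probe sets, and 1041 of the 7453 tested probe sets had one at least as small.

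The other Cux1 probe set, 104240_at, was dim and lay below the filter, so it was not tested. Its signals were 115, 125, 51.7, 14 and 124 in deprived and 62.4, 88.5, 39.5, 94.8 and 100.4 in non-deprived replicates 1 to 5. Deprived replicate 4 was the lowest of all 10 arrays at 14, and the deprived arrays spanned 8.9-fold. When no filter was applied, its log2 difference was -0.03 ± 0.40 (SE), with an interval from -0.90 to 0.84, which leaves even large changes in either direction unresolved. Signals of 85.7 ± 50.2 and 77.1 ± 25.6 (SD, n = 5 each) placed this probe set above 32.9% of all probe sets.

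Cux2 was read by 1 probe set, with signals of 209, 364, 318, 228 and 363 in deprived and 313, 270, 244, 306 and 343 in non-deprived replicates 1 to 5. Deprived replicates 1 and 4 were the lowest of all 10 arrays, while deprived replicates 2 and 5 were the highest. The group means were 296 ± 73.8 and 295 ± 38.8 (SD, n = 5 each), and the log2 difference was -0.02 ± 0.16 (SE) with an interval from -0.37 to 0.33 (limma adjusted p = 0.996). The direction of so small an estimate was not fixed: it was 0.09 without deprived replicate 1 and -0.10 at the other end of the single-array omissions.

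Tbr1, a T-box factor that specifies deep-layer neurons projecting to the thalamus, had signals of 5805, 7633, 7493, 5442 and 5162 in deprived replicates 1 to 5. The non-deprived replicates 1 to 5 had 6300, 7576, 6360, 5400 and 6035. Deprived replicates 2 and 3 and non-deprived replicate 2 stood above the other 7 arrays, so high arrays occurred in both groups. The means were 6307 ± 1170 and 6334 ± 792 (SD, n = 5 each). The log2 difference was -0.02 ± 0.12 (SE), with an interval from 17.6% lower to 18.6% higher in deprived cortex (limma adjusted p = 0.996).

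Foxp1, a forkhead repressor found in cortical projection neurons of middle layers and in striatal neurons, was read by 2 probe sets whose estimates had opposite signs. Probe set 96183_at had 1107, 697, 1116, 1005 and 980 in deprived and 626, 624, 1277, 1035 and 894 in non-deprived replicates 1 to 5. Probe set 104415_at had 767, 672, 1005, 769 and 964 in deprived and 852, 1072, 975, 684 and 1020 in non-deprived replicates 1 to 5. The lowest arrays of 96183_at were non-deprived replicates 1 and 2, and non-deprived replicate 2 was the highest array of 104415_at.

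On 96183_at the Foxp1 means were 981 ± 170 and 891 ± 279 (SD, n = 5 each), with a log2 difference of 0.17 ± 0.19 (SE) and an interval from -0.24 to 0.58. On 104415_at they were 835 ± 143 and 920 ± 155 (SD, n = 5 each), with a log2 difference of -0.14 ± 0.14 (SE) and an interval from -0.43 to 0.16. Both had a limma adjusted p of 0.992, and the 2 intervals overlapped. These were the largest estimates in each direction among the tested members, and for 96183_at the arrays of 1 group varied more than for most probe sets: 9.83% of all tested probe sets had a larger SD. The direction of each estimate held in the 10 single-array omissions, at 0.06 to 0.31 for 96183_at and -0.24 to -0.06 for 104415_at.

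Lmo4 encodes a LIM-only protein that binds no DNA itself and joins transcription complexes through LIM-domain binding partners. It is expressed in projection neurons, in a pattern that differs between cortical areas. Its signals were 5688, 6163, 6347, 4425 and 6067 in deprived and 5495, 6178, 5105, 4040 and 6350 in non-deprived replicates 1 to 5. Replicate 4 was the lowest array in both groups, and the other 8 arrays lay between 5105 and 6350. With means of 5738 ± 772 and 5434 ± 928 (SD, n = 5 each), the log2 difference was 0.08 ± 0.13 (SE) and the interval ran from 12.3% lower to 28.3% higher in deprived cortex (limma adjusted p = 0.992). Without non-deprived replicate 4 the estimate was -0.02.

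Mef2c, a MADS-box factor of excitatory neurons that limits the number of excitatory synapses, was read by 4 probe sets. Probe set 104590_at had 4250, 5954, 4685, 4472 and 4564 in deprived and 4271, 4819, 5376, 4780 and 4612 in non-deprived replicates 1 to 5. Probe set 104592_i_at, an incomplete set with fewer probes, had 3225, 5015, 3841, 4119 and 3939 in deprived and 3282, 4403, 3909, 3647 and 3879 in non-deprived replicates 1 to 5. On both, replicate 1 was the lowest array of each group, and deprived replicate 2 was the highest of all 10 arrays.

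Probe set 104591_g_at of Mef2c, whose suffix marks a group of similar sequences, had 1976, 2344, 2277, 2435 and 2169 in deprived and 1841, 2322, 2805, 2162 and 2352 in non-deprived replicates 1 to 5. Again replicate 1 was lowest in each group. Probe set 97357_at, annotated to a different source sequence, had 1813, 1714, 1836, 1809 and 1468 in deprived and 1705, 1888, 1848, 1789 and 1924 in non-deprived replicates 1 to 5. Here deprived replicate 5 was the lowest array and replicate 1 was not low in deprived cortex, unlike on the other 3 probe sets.

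The log2 differences of the 4 Mef2c probe sets lay on both sides of 0. They were -0.0023 ± 0.10 (SE) for 104590_at, 0.07 ± 0.11 for 104592_i_at, -0.03 ± 0.10 for 104591_g_at and -0.09 ± 0.08 for 97357_at, and the limma adjusted p-values were 0.992 to 0.997. The widest reach of the 4 intervals was from -0.26 (97357_at) to 0.30 (104592_i_at). For 104590_at the means of 4785 ± 673 and 4771 ± 401 (SD, n = 5 each) differed by less than the spread between arrays, with an interval from 13.5% lower to 15.2% higher in deprived cortex.

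**Figure D2:**
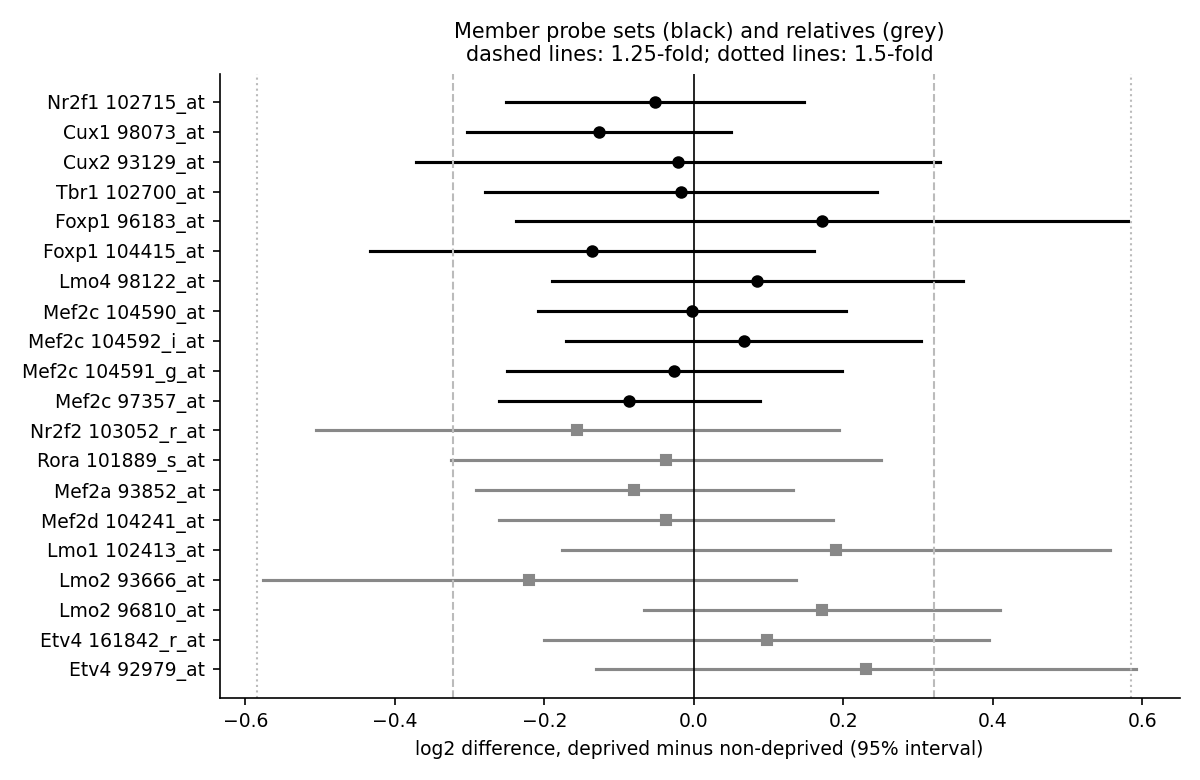
Log2 difference, deprived minus non-deprived, with its 95% interval for the 11 tested member probe sets (black circles) and 9 tested probe sets of relatives, without Mef2b (grey squares). Dashed lines mark a 1.25-fold and dotted lines a 1.5-fold difference, and each of the 20 intervals spans 0.

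The intervals bound the size of a difference that the arrays leave possible in the fit without a replicate block. Like the p-values, they rest on the spread between these samples, which may be technical, so they may not bound a difference between animals. With replicate number as a block, the SE was smaller for each tested member except Mef2c on 97357_at. For Lmo4 it was 0.07 in place of 0.13, and for Mef2c on 97357_at 0.084 in place of 0.081. The counts below are for the fit without the block. For the 11 tested member probe sets, each 95% interval, not adjusted for the number of probe sets, lay inside a 1.5-fold difference in either direction, as did 85.8% of all tested probe sets. For 7 of the 11 it lay inside a 1.25-fold difference, against 35.7% of all tested. The 7 were Nr2f1, Tbr1, Cux1 on 98073_at and the 4 of Mef2c, while the intervals of Cux2, Lmo4 and both Foxp1 probe sets reached past 1.25-fold. The tested members were mostly bright. All but Cux2 had a mean signal above at least 81.7% of all probe sets, and Cux2 one above 58.3%. The shares of all tested probe sets were not matched for signal. Fold changes on the log2(signal + 16) scale understate those of dim probe sets, which among the tested members concerns Cux2 most.

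The spread between arrays of 1 group was close to that of the array as a whole, with a median SD of 0.19 log2 units for the 11 member probe sets and 0.20 for all tested. It was smallest for Cux1 on 98073_at (0.10) and Mef2c on 97357_at (0.11), and 93% and 92.2% of all tested probe sets had a larger SD. It was largest for Foxp1 on 96183_at (0.37) and Cux2 (0.28). On the linear scale, the coefficient of variation of the tested members lay between 4.72% (Mef2c on 97357_at, non-deprived) and 31.3% (Foxp1 on 96183_at, non-deprived).

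**Figure D3:**
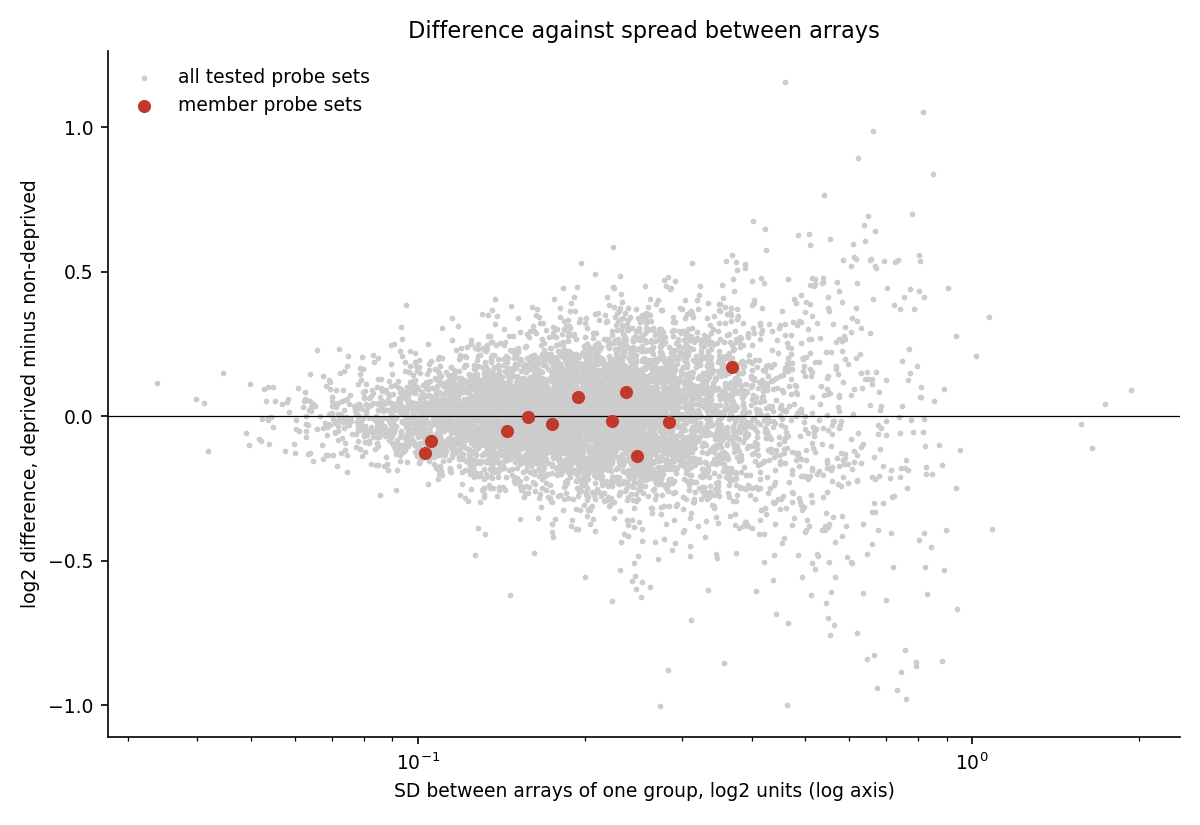
Log2 difference, deprived minus non-deprived, against the SD between arrays of 1 group (log2 units, log axis) for the 7453 tested probe sets in grey and the 11 member probe sets in red. The members lie between -0.14 and 0.17 on the vertical axis and between 0.10 and 0.37 on the horizontal axis, within the cloud of all probe sets.

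Close relatives of the members gave no call either. Nr2f2, the COUP-TFII counterpart of Nr2f1, had a log2 difference of -0.16 ± 0.16 (SE) on 1 tested probe set of relaxed design rules, and Rora, a relative of Rorb, one of -0.04 ± 0.13. The MEF2 factors Mef2a and Mef2d, which share DNA-binding sites with Mef2c, had -0.08 ± 0.10 and -0.04 ± 0.10, and the bright Mef2d averaged 8599 ± 955 and 8853 ± 1250 (SD, n = 5 each). Mef2b, a further MEF2 factor, had 0.19 ± 0.14, the other way. Lmo1 had 0.19 ± 0.17, and the 2 probe sets of Lmo2 had -0.22 ± 0.17 and 0.17 ± 0.11. Etv4, an ETS factor related to Etv1, had 0.10 ± 0.14 and 0.23 ± 0.17 on 2 probe sets. The limma adjusted p of each of these probe sets was 0.992. Dim second probe sets of Nr2f2, Rora and Mef2a were not tested, and Emx2, Foxp2, Foxp4, Lmo3 and Etv5 were not analysed here.

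In 4 lists of other genes of cortical identity, each gene represented by its brightest probe set, 0 genes passed in either direction in limma after adjustment. Of 14 area and early identity factors 5 were tested, with a median log2 difference of -0.08, 2 above 0 and 3 below. Pax6, a homeobox factor of cortical progenitors, had -0.22 ± 0.15 (SE), the helix-loop-helix inhibitor Id2 had 0.14 ± 0.11, and the COUP-TF relative Nr2f6 had -0.08 ± 0.08. Of 28 other layer and projection-neuron factors 17 were tested, with a median of -0.02, 8 above 0 and 9 below. The nuclear factor I genes Nfib and Nfia led this list with -0.17 ± 0.09 and 0.34 ± 0.19, in opposite directions, followed by the corepressor Tle1 with -0.19 ± 0.13. None of the 5 and none of the 17 had an unadjusted p under 0.05 in limma.

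The remaining lists held the LIM and MEF2 partners and the effector genes of excitatory neurons. Of 16 LIM and MEF2 relatives and partners 11 were tested, with a median of 0.08, 7 above 0 and 4 below. Ldb2, a LIM-domain binding protein that can bridge LIM proteins such as Lmo4, averaged 1784 in deprived and 1519 in non-deprived cortex. Its log2 difference was 0.23 ± 0.09 (SE), with a limma unadjusted p of 0.0174 but an adjusted p of 0.992. Lmo2 on its brighter probe set had 0.17 ± 0.11, and Hdac5, a histone deacetylase that represses MEF2 targets, had -0.12 ± 0.08.

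Of 28 effector markers of excitatory neurons and layers 16 were tested, with a median of 0.0014, 8 above 0 and 8 below. Epha7, an ephrin receptor patterned across the cortex, had 0.27 ± 0.11 (limma unadjusted p = 0.0298, adjusted p = 0.992). Camk2a, the calcium-dependent kinase of excitatory synapses, had -0.29 ± 0.18 and Rgs4, a regulator of G-protein signalling, -0.19 ± 0.14. Ldb2 and Epha7 were thus the only genes of the 49 tested in these 4 lists with an unadjusted p under 0.05, against 4.79% of all tested probe sets. The median of the effector list turned to -0.0090 under quantile normalization and -0.03 under median scaling.

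Markers of other cell types had overlapping summed signals in the 2 groups. Such sums follow the brightest markers and say little about the dim ones. The oligodendrocyte marker Mbp averaged 11127 in deprived and 11612 in non-deprived cortex. Among astrocyte markers, Gja1 averaged 7407 and 7278, but Slc1a2 only 312 and 236. The sum of 12 inhibitory neuron markers ranged from 17434 to 20410 in deprived and from 17591 to 20055 in non-deprived arrays, and that of the 19 measured excitatory effector markers from 21176 to 24867 and from 20529 to 24441. The sum of 6 astrocyte markers ranged from 16810 to 18168 and from 17091 to 18991, that of 6 oligodendrocyte markers from 17760 to 24556 and from 16682 to 24053, and that of 8 microglial markers from 5388 to 5872 and from 4940 to 5713. The sum of 8 endothelial and mural markers ranged from 2442 to 2572 and from 2342 to 2676. No marker in these lists was listed at 0 on every array. None passed in limma after adjustment, and Slc1a2, an astrocyte glutamate transporter, was the only marker of a non-excitatory cell type or neighbouring tissue with an unadjusted p under 0.05 (log2 0.38 ± 0.14 SE, unadjusted p = 0.0165, adjusted p = 0.992). The tested markers were 12 inhibitory, 6 astrocyte, 5 oligodendrocyte, 7 microglial, 7 endothelial and mural, and 6 of neighbouring tissue. Over all tested probe sets, 4.79% had an unadjusted limma p under 0.05. For 8 markers of thalamus, striatum or hippocampus the sum ranged from 3201 to 4121 and from 3281 to 3529. The mean signal was higher in deprived cortex for 6 of these 8 markers, for 5 of 6 oligodendrocyte, 5 of 6 astrocyte, 5 of 8 endothelial and mural, 4 of 8 microglial, 6 of 12 inhibitory neuron and 10 of 19 excitatory effector markers. Over the tested markers, each gene by its brightest probe set, the median log2 difference was 0.14 for oligodendrocytes, 0.11 for microglia and 0.07 for neighbouring tissue. It was 0.06 for endothelial and mural cells, 0.03 for astrocytes and -0.01 for inhibitory neurons. With all tested probe sets of the same genes, the median was 0.03 for oligodendrocytes, 0.01 for microglia and 0.06 for neighbouring tissue. For endothelial and mural cells, astrocytes and inhibitory neurons it was then 0.07, 0.05 and -0.0058. The part of tissue composition in the member values was not tested.

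**Figure D4:**
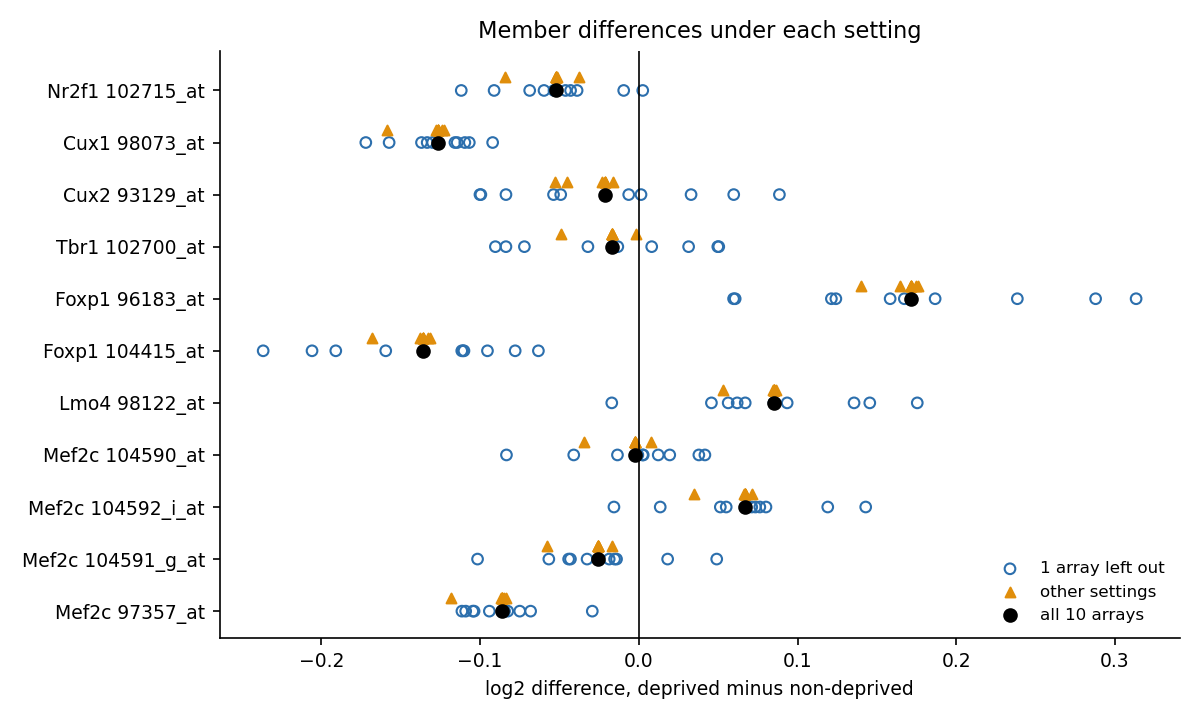
Log2 difference, deprived minus non-deprived, of the 11 tested member probe sets with all 10 arrays (black), with 1 array left out (blue circles) and under the other processing settings (orange triangles). Estimates of Cux1, both Foxp1 probe sets and Mef2c on 97357_at stay on 1 side of 0, and those of the other 7 probe sets lie on both sides.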

How the data were processed

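The authors deposited linear-scale signal intensities, summarised by MAS5 per the submitters' processing notes, for each probe set on each array. The version and scaling target of MAS5 are not stated in the labels. Values ranged from 0 to 36786. After leaving out 66 control probe sets, 12422 remained, of which a platform annotation, updated through Entrez IDs, gave 10833 exactly 1 symbol. No genome build belongs to these values. Intensities were converted to log2(signal + 16), and the 7453 probe sets whose mean reached the 40th percentile were tested with limma 3.58.1 in R 4.3.3 (intensity trend, no covariate, Benjamini-Hochberg at 0.05). The fit was tested on simulated data with normal noise and independent probe sets. Over 10 runs, 500 changes each of 1.25-, 1.5-, 2- and 3-fold were planted among the 7453 probe sets. The fit recovered 17.4% of 1.25-fold, 62.6% of 1.5-fold and 88.2% of 2-fold changes, and 5.21% of its calls were false. Most changes of 1.25-fold were thus missed in the simulation. Many planted changes loosen the adjusted threshold, whereas 0 probe sets passed in the measured data. These shares therefore do not apply to a single changed member, for which the threshold is stricter. Quality measures were compared by exact permutation over 252 assignments. Alternatives were other pseudocounts, filters and normalizations, no intensity trend, a replicate block and the omission of each array.

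The members, lists and tests were chosen with earlier results of these data known. Named genes are all member probe sets, relatives on a fixed list of names, and the 3 genes with the smallest p in each of 4 lists. Nrgn, Neurod2, Cck, Pcp4, Drd2, Rgs9, Prox1, Penk, Tcf7l2, Mbp, Gja1, Slc1a2 and Mef2b were named after their values were seen.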

Additional observations from a re-analysis of the deposited data

Results flagged for a closer look

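On Mef2c probe set 104590_at, deprived replicate 2 had a signal of 5954 and the nearest other deprived array 4685, a gap of 0.745 of the group's whole range, which exceeds Dixon's 95% value of 0.71 for 5 arrays. The same array was also the highest on 104592_i_at, at 5015, but not on 104591_g_at (2344) or 97357_at (1714). Without it, the log2 difference on 104590_at was -0.08 in place of -0.0023. Both groups of all 12 probe sets, 24 in all, were examined, and chance alone would mark about 1 group in 20.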

How the results depend on the processing

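Under each of the 18 alternatives, 0 of the tested member probe sets passed an adjusted p of 0.05 in limma, and 0 had an unadjusted p under 0.05. Of 197 member estimates under alternatives, 177 kept their direction and 20 changed sign, of which 19 came from omitting 1 array. Single-array omissions moved the log2 difference from -0.10 to 0.089 for Cux2, from -0.090 to 0.050 for Tbr1, from -0.017 to 0.18 for Lmo4 and from -0.11 to 0.0024 for Nr2f1. For Mef2c they gave -0.083 to 0.042 on 104590_at, -0.10 to 0.049 on 104591_g_at and -0.016 to 0.14 on 104592_i_at. Under quantile normalization 104590_at had 0.0074, and the median of the excitatory effector markers was -0.0090, or -0.031 under median scaling. The cause of these sign changes was not tested. Over all probe sets the count at an adjusted p of 0.05, which was 0, became 2 with a pseudocount of 49, 2 when the filter was set at the 60th percentile, and 0 to 5 with 1 array omitted. None of the probe sets so called was a member. A replicate block gave 6, with 0 members and a smallest member adjusted p of 0.798. The labels do not say that a number pairs samples. Same-numbered arrays had deviations from their group means that correlated at 0.02 to 0.23 across probe sets, those with different numbers at -0.25 to 0.088, and 4 of 5 deprived and 5 of 5 non-deprived arrays correlated best with their own number. The gene lists, recomputed only under quantile normalization, median scaling, the replicate block and with all tested probe sets of their genes, kept a count of 0. No detection calls were used, so low signals were not set against background.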

Other observations

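Across the 10 arrays, the member probe sets formed 66 pairs, and 0 of them had a correlation that passed a Benjamini-Hochberg adjusted permutation p of 0.05. The highest Pearson correlation was between 2 probe sets of Mef2c, 104590_at and 104592_i_at, with Pearson's r = 0.782 (permutation p = 0.00803, adjusted p = 0.53) and Spearman's rho = 0.612 (permutation p = 0.0674, adjusted p = 0.583). It was 0.741 without the 2 arrays farthest from the median of 104590_at. Whether these probe sets share probes was not examined. Mef2c 97357_at, of a different source sequence, had r = 0.051 with 104590_at, -0.0065 with 104592_i_at and 0.338 with 104591_g_at (permutation p = 0.881, 0.984 and 0.314). The 2 probe sets of Foxp1 had r = 0.0087 (permutation p = 0.981, adjusted p = 0.984) and rho = -0.12 (permutation p = 0.76, adjusted p = 0.939). Their r was 0.428 without the 2 arrays farthest from the median of 96183_at. Between different genes, the highest Pearson correlation was that of Tbr1 with Nr2f1, at r = 0.71 (permutation p = 0.0208, adjusted p = 0.686) and rho = 0.624 (permutation p = 0.0597, adjusted p = 0.583). Its r was 0.871 without the 2 arrays farthest from the median of Tbr1. Ranked by rho the order differed: Mef2c 104592_i_at with 104591_g_at and Foxp1 104415_at with Mef2c 97357_at each had rho = 0.661 (permutation p = 0.0424 and 0.0439), with r = 0.595 and 0.157 (permutation p = 0.068 and 0.718). Cux1 104240_at with Nr2f1 had rho = -0.68 (permutation p = 0.034) and r = -0.46 (permutation p = 0.179). The adjusted p of each of these 3 rho values was 0.583. Without the 2 arrays farthest from the median of the probe set named first, r was 0.642, 0.13 and -0.75 for these 3 pairs. Arrays outlying only on the other probe set of a pair were not left out. The arrays share their scaling, and their independence is not given in the labels.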
